A study of Mus musculus with 4 samples.

Results

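Insulin signalling and FoxO genes were followed here through the called GR and E2A peaks of mouse liver. The 10 genes were Insr, Irs1, Irs2, Igfbp1, Igfbp2, Foxo1, Foxo3, Akt2, Pik3r1 and Trib1. A called peak was counted at a gene when the deposited annotation named that gene as its nearest gene, or when the peak lay within 50 kb of the gene's transcription start site. Peaks of any library that shared at least 1 bp were joined into 1 region. Of 10755 regions formed from 17545 called peaks, 57 regions with 96 peaks met this rule. Of the 96 peaks, 6 were annotated to a gene other than these 10. The members had been chosen with earlier results of these data known, so the comparisons with other genes are descriptions and carry no test.

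The glucocorticoid receptor (GR) moves to the nucleus once it has bound cortisol or corticosterone, and there it docks on palindromic sites, the glucocorticoid response elements (GREs). E47 is a splice product of the E2A gene and binds E-Boxes as a basic helix-loop-helix protein. ChIP-Seq with a GR antibody and ChIP-Seq with an E2A antibody were each performed in 2 biological replicates, giving 4 libraries in all. The study used the same livers for both antibodies, but which GR library shares a liver with which E2A library is not given in the sources used here. Per the labels, all livers came from male wild-type (E47+/+) C57BL/6 mice on chow, taken at Zeitgeber time 10 without treatment. The study's methods give an age of 10 to 16 weeks, whereas its supplementary description of the same peak lists names Dex-treated livers. No group of the comparison carried a mutant allele, and E47 mutant livers were not analysed here.

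Several labels contradict each other. The free-text description of each E2A library names a GR ChIP, and that of E2A replicate 2 also names E47-/- mice, but the title, antibody and genotype fields of both name E2A in E47+/+ mice, and these were followed. The deposited lists of the GR libraries are named with replicate numbers opposite to the labels, and the numbers of the labels are used. The libraries differed in size, with 4291 and 7334 called peaks for GR replicates 1 and 2 and 4028 and 1892 for E2A replicates 1 and 2. The lists hold positions and widths but no read counts or peak heights, so a missing peak cannot be told from one just under the caller's threshold. Liver marker genes could not be checked, because no expression was measured in these files.

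Insulin binds its receptor (Insr), which phosphorylates the adaptors Irs1 and Irs2. These recruit phosphoinositide 3-kinase, whose regulatory subunit p85α is encoded by Pik3r1, and the lipid it makes activates Akt2, the main Akt kinase of hepatocytes for glucose control. Akt phosphorylates Foxo1 and Foxo3 and keeps them out of the nucleus. In fasting the FoxO factors are nuclear and switch on genes such as Irs2 and Igfbp1, and glucocorticoids raise hepatic glucose output in the same state. Igfbp1 and Igfbp2 are secreted proteins that bind insulin-like growth factors, and Trib1 is a pseudokinase that directs the transcription factor C/EBPα to degradation.

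The promoters of Irs1, Irs2 and Igfbp1 are printed first, because in them the called peaks met the FoxO-binding element that is known for insulin control of Igfbp1. The letters come from the RefSeq promoter table of GRCm38.p6, the assembly of mm10, on the minus strand for Irs1 and Irs2 and the plus strand for Igfbp1. Capitals mark E-Boxes (CANNTG) and the insulin response core CAAAACA, searched on both strands, so that TGTTTTG is the same core read from the other strand. Each run starts 250 bases before the RefSeq start and is 240 bases long. Distances of matches in these promoters are from the RefSeq start.
Irs1 promoter, chr1:82291450-82291689: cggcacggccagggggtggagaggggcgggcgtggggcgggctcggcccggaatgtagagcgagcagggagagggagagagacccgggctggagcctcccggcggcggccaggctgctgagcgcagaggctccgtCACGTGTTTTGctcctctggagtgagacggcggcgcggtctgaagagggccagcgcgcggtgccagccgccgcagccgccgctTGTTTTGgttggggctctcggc
Irs2 promoter, chr8:11008940-11009179: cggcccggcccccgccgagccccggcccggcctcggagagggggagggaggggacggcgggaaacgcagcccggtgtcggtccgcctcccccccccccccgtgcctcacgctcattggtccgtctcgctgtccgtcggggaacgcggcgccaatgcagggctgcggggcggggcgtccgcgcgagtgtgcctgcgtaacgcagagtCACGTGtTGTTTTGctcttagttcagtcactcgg
Igfbp1 promoter, chr11:7197537-7197776: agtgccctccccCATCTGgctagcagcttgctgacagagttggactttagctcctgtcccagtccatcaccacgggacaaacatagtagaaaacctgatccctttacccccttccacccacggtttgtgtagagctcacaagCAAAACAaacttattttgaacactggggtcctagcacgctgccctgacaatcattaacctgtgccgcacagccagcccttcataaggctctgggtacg

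The Irs1 and Irs2 promoters each held the E-Box CACGTG next to a CAAAACA core. In Irs1 the E-Box began 115 bp before the start and overlapped the core that began 111 bp before it, and a further core began at 32 bp. In Irs2 the E-Box began 44 bp and the core 37 bp before the start, with 1 base between them. Over all 32851 RefSeq promoter windows of 300 bp, 7.15% held CACGTG, 6.28% held CAAAACA and 0.408% held both, and Irs1 and Irs2 were the members with both. The peaks of GR replicates 1 and 2 and of E2A replicate 1 covered all 3 matches in the Irs1 promoter. In the Irs2 promoter both GR replicates covered the E-Box and the core. The peak of E2A replicate 2, chr8:11008967-11009225, covered the E-Box but not the core. The edge of that peak was the 1 base between the E-Box and the core, so the difference depends on where the called interval ends. The CAAAACA core of Igfbp1, 108 bp before the start, was covered by GR replicate 2 alone.

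Matches to the GRE core are shown next, because GREs are the sites on which GR docks. Each lay in a region with GR and without E2A. The letters were read from GRCm38.p6 on the minus strand, which is the strand of Irs1, Foxo3 and Pik3r1. The core searched, in the central 300 bp of each region and with 0 mismatches, was GNACANNNTGTNC, which reads alike on both strands. Capitals mark the match, with 10 bases on each side.
Irs1 intron, chr1:82239594-82239626: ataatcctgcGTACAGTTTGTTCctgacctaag
Foxo3 intron, chr10:42231141-42231173: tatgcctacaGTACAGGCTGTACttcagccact
Pik3r1 upstream, chr13:101812133-101812165: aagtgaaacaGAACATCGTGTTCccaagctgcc
Pik3r1 intron, chr13:101698117-101698149: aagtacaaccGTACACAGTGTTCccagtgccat

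The Foxo3 match and the intronic Pik3r1 match were covered by peaks of both GR replicates. The Irs1 match was covered by a peak of GR replicate 1 and the upstream Pik3r1 match by one of GR replicate 2. Of the 40 regions with GR at the members, 4 (10.0%) held the core, against 3.86% of all 8751 GR regions. Outside promoters these shares were 4 of 28 (14.3%) and 6.84%, and among promoter regions they were 0 of 12 and 0.95%. The core was found in 0 of the 29 member regions with E2A, where 1.33% of all 4662 E2A regions held it. None of the 12 regions with both factors at the members therefore held an unmismatched core in its central 300 bp. With the core in only 1.33% of all E2A regions, its absence from 29 does not set the members apart.

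The 300 bp at the centres of 2 intronic regions with GR and E2A, at Foxo1 and Foxo3, are shown because both E2A replicates were called there. An intronic region at Trib1 also had GR and both E2A replicates and is described below without its letters. The Foxo1 region is on the plus strand and the Foxo3 region is on the minus strand, both from GRCm38.p6, and capitals again mark E-Boxes and the CAAAACA core.
Foxo1 intron 1, chr3:52290870-52291169: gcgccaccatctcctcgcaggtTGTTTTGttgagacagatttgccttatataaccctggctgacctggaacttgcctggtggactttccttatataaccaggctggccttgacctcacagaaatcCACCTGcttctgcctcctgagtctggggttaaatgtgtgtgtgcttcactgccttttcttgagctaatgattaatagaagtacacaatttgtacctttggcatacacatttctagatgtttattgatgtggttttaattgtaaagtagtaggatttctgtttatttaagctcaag
Foxo3 intron, chr10:42274296-42274595: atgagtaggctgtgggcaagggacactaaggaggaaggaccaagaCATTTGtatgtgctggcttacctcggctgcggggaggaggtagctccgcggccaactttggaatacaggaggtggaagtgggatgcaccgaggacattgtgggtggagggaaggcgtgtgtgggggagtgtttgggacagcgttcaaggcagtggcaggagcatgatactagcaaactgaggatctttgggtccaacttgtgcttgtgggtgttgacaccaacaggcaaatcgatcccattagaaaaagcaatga
The Foxo1 window held 1 CAAAACA core and 1 E-Box of the form CACCTG, the other strand of CAGGTG. Both matches were covered by the peaks of GR replicate 1 and both E2A replicates. Of the bases of the Foxo1 region, 50.1% were soft-masked as repeats, and the printed letters do not show whether the matches lie among them. The Foxo3 window held 1 E-Box, CATTTG, which was covered by the peak of GR replicate 2 alone. Part of each E2A peak of this region, chr10:42274125-42274393 and chr10:42274198-42274448, lies outside the window.

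GR peaks were called at 9 of the 10 genes, all but Akt2, and E2A peaks at 9, all but Igfbp1. Under the same rule 45.3% of 21911 protein-coding genes had a GR peak in any replicate and 30.2% had an E2A peak. GR peaks of both replicates met in 1 region at 8 genes, all but Igfbp1 and Akt2, against 19.5% of protein-coding genes. E2A peaks of both replicates met at 4 genes, Foxo1, Foxo3, Pik3r1 and Trib1, against 10.7%. GR and E2A shared a region at 7 genes (Insr, Irs1, Irs2, Foxo1, Foxo3, Pik3r1 and Trib1), against 20.3%. A region called in all 4 libraries was present at 3 genes, Foxo3, Pik3r1 and Trib1, against 4.72%.

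**Figure D1:**
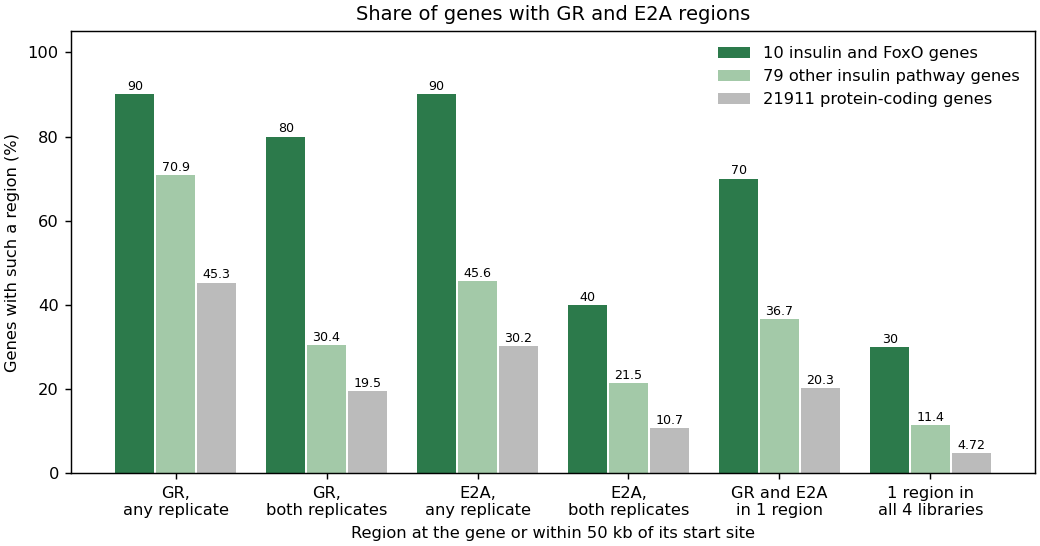
Share of genes (%) with a GR region, an E2A region or both under 6 rules, for the 10 insulin and FoxO genes, 79 other insulin pathway genes and 21911 protein-coding genes. The bars of the 10 genes stand highest under each rule, from 90.0% for any GR peak to 30.0% for a region called in all 4 libraries.

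Counted by region, the share of GR regions with E2A was close to that of the whole series, and the share of E2A regions with GR was below it. Of the 40 regions with GR, 12 (30.0%) also held an E2A peak, against 30.4% of all GR regions. Of the 29 regions with E2A, 12 (41.4%) also held a GR peak, against 57.0%. Replicates of GR met in 19 of 40 regions (47.5%), against 31.3%, and replicates of E2A met in 7 of 29 (24.1%), against 23.8%. All 7 regions called in both E2A replicates held GR as well, where 71.5% of such regions did over the genome, while 5 of the 22 called in 1 E2A replicate held GR (22.7%), against 52.5%. E2A was present in 8 of the 19 regions of both GR replicates (42.1%), against 46.6%, and in 4 of the 21 of 1 GR replicate (19.0%), against 23.0%. Without E2A replicate 2 there were 24 E2A regions and 10 shared regions at 6 genes, with Insr lost. Without E2A replicate 1 there were 12 E2A regions and 9 shared regions at 6 genes, with Irs1 lost. Without GR replicate 1 there were 10 shared regions at 6 genes, with Foxo1 lost, and without GR replicate 2 there were 10 at 7 genes. By pairs of libraries, GR replicate 1 shared 8 regions with each E2A replicate, and GR replicate 2 shared 8 with E2A replicate 1 and 7 with E2A replicate 2.

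**Figure D2:**
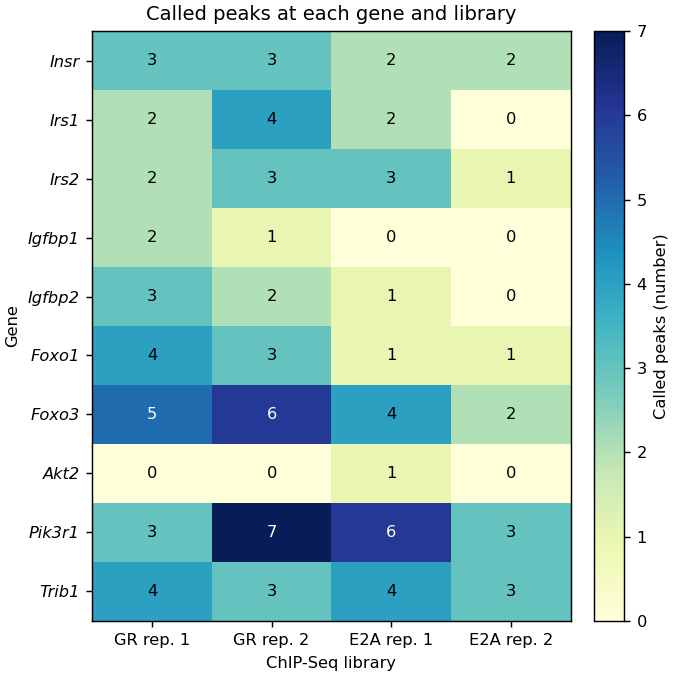
Number of called peaks at each of the 10 genes (rows) in each library (columns), with darker cells for more peaks. Pik3r1 had the most, with 7 in GR replicate 2, while Akt2 had 1 peak, in E2A replicate 1, and Igfbp1 had none in either E2A library.

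The 3 kinds of region lay at different distances from the start sites. Of the 12 shared regions, 9 (75.0%) were centred within 10 kb of the start of their own gene, at a median distance of 1.77 kb. The 28 regions with GR alone had a median distance of 16.3 kb, with 12 (42.9%) within 10 kb. The 17 regions with E2A alone had a median distance of 49.2 kb, and 1 of them (5.88%), at the Akt2 promoter, lay within 10 kb. These distances run from the 5′ end of the gene record and leave out other starts of the same gene. In the deposited annotation, for example, the E2A-only Insr region at 23.1 kb lay 2156 bp from an Insr start. The GR-only Pik3r1 region at 73.6 kb was annotated there as a promoter. Measured to the nearest start of any protein-coding gene, 75.0%, 53.6% and 17.6% of the shared, GR-only and E2A-only member regions lay within 10 kb. Over the whole series these shares were 63.2%, 64.3% and 45.8%. Promoter annotation was less frequent at these genes than over the genome, at 12 of 40 GR regions (30.0%) against 50.5% and 6 of 29 E2A regions (20.7%) against 40.3%. The gap differed by library. In GR replicates 1 and 2, 25.0% and 34.4% of the peaks at these genes were promoter peaks, against 34.3% and 57.4% of all. In E2A replicates 1 and 2 the shares were 20.8% and 33.3%, against 41.2% and 37.1%. Each of the 17 E2A-only regions was called in 1 E2A replicate, 14 in replicate 1 and 3 in replicate 2. Most of the 2004 E2A-only regions of the whole series were likewise called in 1 replicate, 1345 in replicate 1 and 343 in replicate 2, with 316 in both.

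At the receptor gene Insr, on chromosome 8 (ENSMUSG00000005534, minus strand), GR and E2A were called in separate regions of the promoter and intron 1. GR replicate 2 had a promoter peak, chr8:3279311-3279686, which was not called in GR replicate 1. Both GR replicates had a peak 17.5 kb into the gene, chr8:3261828-3262387. E2A replicate 1 had intronic peaks centred 23.1 and 58.5 kb from the start, and E2A replicate 2 had one at 48.8 kb, chr8:3230698-3230973, which held a CACGTG E-Box. None of these 5 regions held both factors. The region with GR and E2A assigned to Insr, chr8:3046430-3050592, lay 231 kb from the start and beyond the 3′ end of the gene, and is described among the other observations.

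The adaptor genes Irs1 and Irs2 were occupied by GR in both replicates at their promoters, with E2A in 1 replicate at each region. At Irs1, on chromosome 1 (ENSMUSG00000055980, minus strand), the promoter region chr1:82290832-82291789 held peaks of 436 bp in GR replicate 1, 754 bp in GR replicate 2 and 528 bp in E2A replicate 1. E2A replicate 2 had no peak at Irs1. GR replicate 2 added peaks 5.12 and 7.80 kb into the intron, and 1 at the promoter of the neighbour Rhbdd1, 25.1 kb upstream of Irs1. GR replicate 1 added the peak at 51.8 kb with the GRE core, and E2A replicate 1 a peak in the 3′ UTR at 56.5 kb. Beyond the promoter, no Irs1 region was called in more than 1 library.

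Irs2, on chromosome 8 (ENSMUSG00000038894, minus strand), had a pair of adjacent regions upstream of its start, each with both GR replicates and a different E2A replicate. In the first, chr8:11009443-11009917, 1.22 kb upstream, the peaks of GR replicate 1, GR replicate 2 and E2A replicate 1 were 473, 298 and 436 bp wide, and GR and E2A centres came within 4.0 bp. In the second, chr8:11008676-11009231, 0.495 kb upstream, the peaks of GR replicate 1, GR replicate 2 and E2A replicate 2 were 296, 556 and 259 bp wide. Both distances are from the GENCODE start, whereas the RefSeq start used for the printed promoter lies within the second region. E2A was thus called upstream of Irs2 in both replicates but in no region by both. The remaining regions were single peaks, of E2A replicate 1 at 80.8 kb upstream and 34.1 kb downstream of the start and of GR replicate 2 at 42.8 kb downstream. Those 2 downstream peaks were annotated to 9530052E02Rik and 3930402G23Rik.

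The genes of the binding proteins had GR peaks without a shared E2A peak within 50 kb. At Igfbp1, on chromosome 11 (ENSMUSG00000020429), GR replicate 2 had a promoter peak of 597 bp, chr11:7197570-7198166. GR replicate 1 had instead peaks of 416 and 309 bp centred 4.91 and 3.11 kb upstream, and no Igfbp1 region was called in both GR replicates. The first of these was annotated to Gm11985 and held a CAAAACA core. E2A was not called within 50 kb of the Igfbp1 start in either replicate. A window of 100 kb instead took in 1 further region, with GR and E2A, and brought the genes with a shared region to 8. At Igfbp2, on chromosome 1 (ENSMUSG00000039323), both GR replicates called a region 15.0 kb upstream, chr1:72809304-72809682. GR replicate 1 alone had peaks at the promoter and 51.0 kb upstream. Near the neighbouring gene Igfbp5, GR replicate 2 and E2A replicate 1 had adjacent peaks 46.3 and 46.7 kb downstream of the Igfbp2 start that shared no base.

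**Figure D3:**
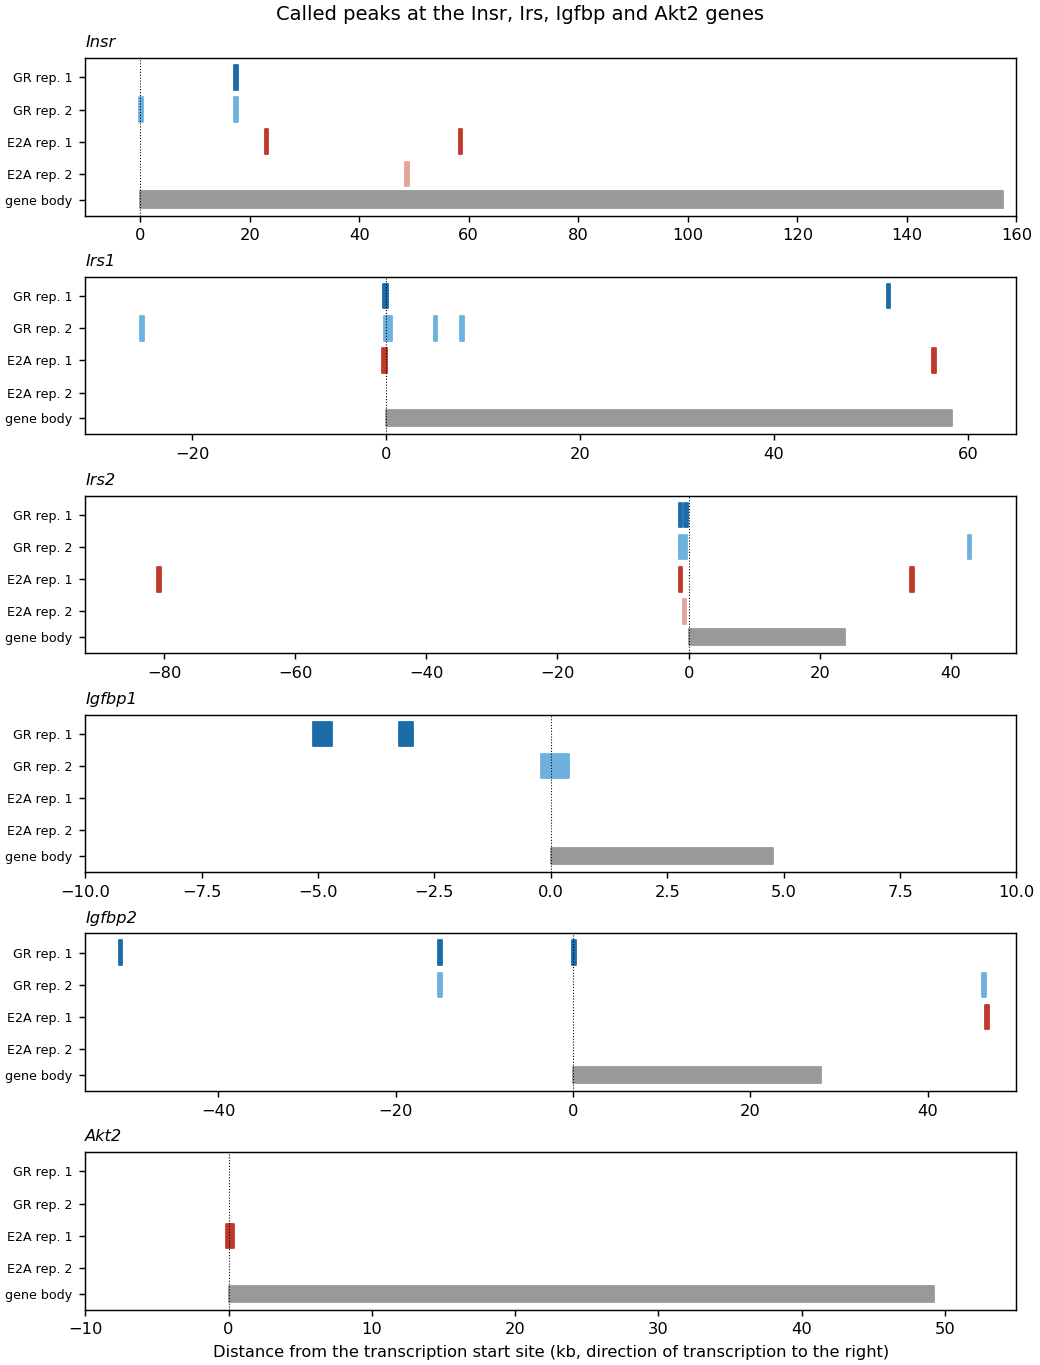
Called peaks at Insr, Irs1, Irs2, Igfbp1, Igfbp2 and Akt2 by distance from the start site (kb), with 1 row per library and the gene body in grey; peaks are drawn no narrower than a fixed share of the axis, so narrow ones look wider than they are. GR and E2A peaks stand in 1 column at the starts of Irs1 and Irs2, and apart at Insr, and the Insr region 231 kb away is outside the panel.

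Pik3r1, on chromosome 13 (ENSMUSG00000041417, minus strand), had the most regions, 13, with peaks from 256 kb upstream to 132 kb downstream of its start. By nearest gene in the deposited annotation it had 3, 7, 6 and 3 peaks in GR replicates 1 and 2 and E2A replicates 1 and 2, rank 30 among 6521 genes with a peak. The region at its main promoter, chr13:101767907-101768852, was called in all 4 libraries, with peaks of 775 and 683 bp for GR and 690 and 350 bp for E2A. It had 75.3% GC and no E-Box in its central 300 bp. A far upstream region, chr13:102023546-102024151, held GR replicate 2 and E2A replicate 1. GR without E2A was called in both replicates 148 kb upstream and 70.0 kb into the gene, the latter with a GRE core, and in replicate 2 alone at 80.1 kb upstream, at 43.9 kb upstream with the other GRE core, and at 73.6 kb, annotated as a promoter within the gene. E2A alone was called at 6 places, in replicate 1 at 212, 157 and 11.0 kb upstream and 132 kb downstream, and in replicate 2 at 29.2 and 49.2 kb in intron 2. The 2 E2A replicates met at Pik3r1 at the promoter and nowhere else.

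Akt2, on chromosome 7 (ENSMUSG00000004056), had 1 peak in all, of 544 bp in E2A replicate 1 at its promoter, chr7:27591361-27591904. No GR peak was called at Akt2 in either replicate, and the E2A peak was not called in replicate 2.

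The 2 FoxO genes were both occupied by GR over their start sites in both replicates, and their E2A peaks lay in other regions. At Foxo1, on chromosome 3 (ENSMUSG00000044167), GR replicates 1 and 2 had promoter peaks of 502 and 885 bp with the same left edge, chr3:52268253-52269137. Both had a further peak 1.62 kb into intron 1, chr3:52269798-52270115. No E2A peak was called in either of these regions. The region at 22.7 kb in intron 1, chr3:52290750-52291288, held E2A peaks of 539 and 386 bp in replicates 1 and 2 and a GR peak of 402 bp in replicate 1. The nearest GR and E2A centres were 29.5 bp apart, and 50.1% of its bases were soft-masked as repeats. GR replicate 2 did not call it. A pair of GR peaks of 259 and 263 bp lay 233 kb downstream of the start.

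Foxo3, on chromosome 10 (ENSMUSG00000048756, minus strand), had 8 regions. The promoter region over the start, chr10:42275193-42277065, held GR peaks of 534 bp in replicate 1 and 1873 bp in replicate 2, the second wider than 97.9% of the peaks of its library, and no E2A. The region just upstream, chr10:42277342-42278438, held E2A peaks of 664 and 738 bp in both replicates and a GR peak of 1097 bp in replicate 2, and the nearest GR and E2A centres were 1.5 bp apart. The region 2.31 kb into the gene, chr10:42274095-42274796, was called in all 4 libraries, and its E2A peaks, of 269 and 251 bp, were among the narrowest 2.48% of their libraries. GR alone was called by both replicates at 5.79, 25.3 and 45.6 kb in the same intron, the last with the GRE core. E2A replicate 1 alone was called further in, at 51.1 and 74.0 kb. Along the Foxo3 intron GR and E2A peaks were therefore shared near the start and separate from 5.79 kb onward.

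**Figure D4:**
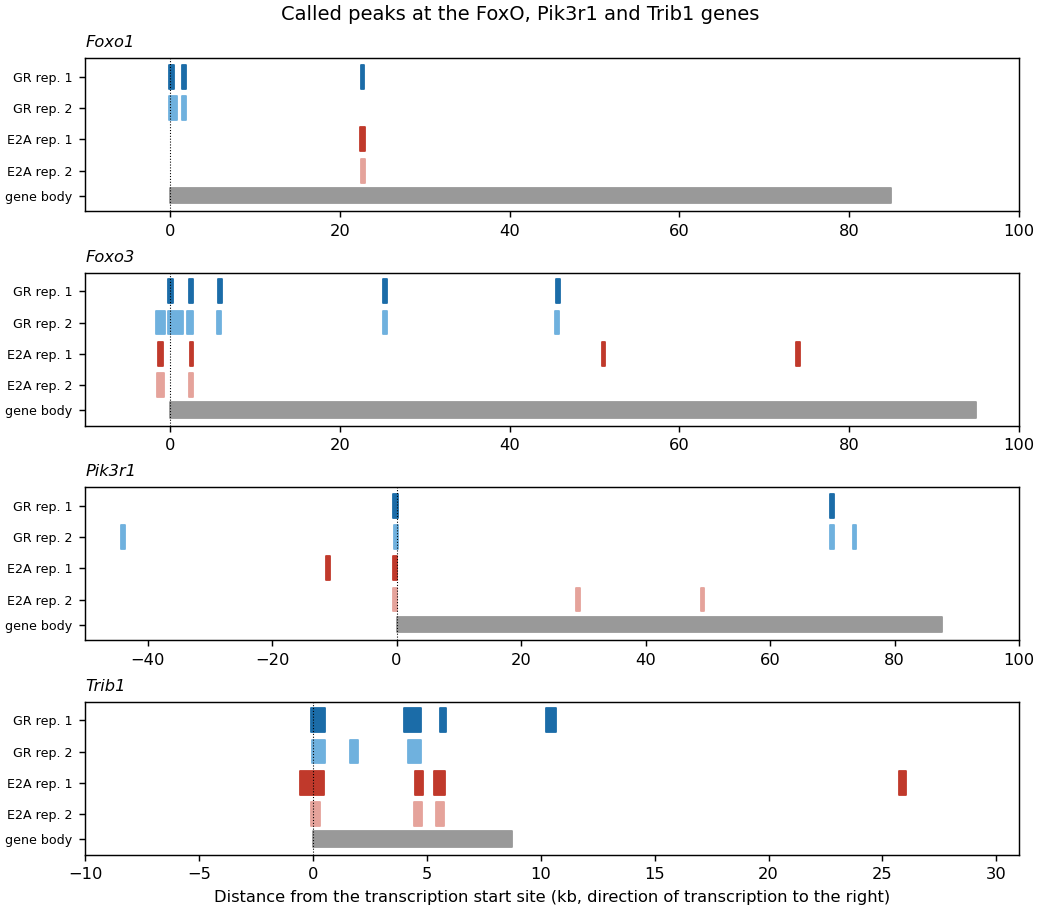
Called peaks at Foxo1, Foxo3, Pik3r1 and Trib1 by distance from the start site (kb), with 1 row per library and the gene body in grey; narrow peaks are drawn at a fixed minimum width. At Foxo3, Pik3r1 and Trib1 a column of peaks in all 4 rows stands at or near the start, and the most distant regions of Pik3r1 and Foxo1 are outside the panels.

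Trib1, on chromosome 15 (ENSMUSG00000032501), was the gene with the most shared regions, 3 of its 6, all of them with both E2A replicates. The promoter region chr15:59647772-59648879 held peaks of 609 and 565 bp for GR and 1039 and 394 bp for E2A. The region at 4.41 kb, chr15:59652323-59653191, annotated as 3′ UTR, held peaks of 755 and 536 bp for GR and 362 and 358 bp for E2A. The region at 5.59 kb, chr15:59653678-59654194, held E2A peaks of 471 and 344 bp and a peak of 284 bp in GR replicate 1. Its central 300 bp contained 2 E-Boxes and 2 matches to TTGCNNAA, the core bound by C/EBP factors. GR replicate 2 alone had a peak at 1.80 kb, GR replicate 1 alone at 10.5 kb and E2A replicate 1 alone at 25.9 kb. Trib1 was thus the member at which the E2A replicates met most often, in 3 regions, compared with 2 at Foxo3 and 1 each at Foxo1 and Pik3r1.

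Where GR and E2A shared a region, a GR and an E2A peak overlapped by definition, so close centres follow in part from the rule. Over the 12 regions the overlap of a GR and an E2A peak was from 238 to 1377 bp at its largest, and the nearest centres were from 1.5 to 178 bp apart. By library, the median distance between centres was 56.0 bp for the GR replicates (19 regions) and 16.5 bp for the E2A replicates (7 regions), and 94.2 bp for GR replicate 1 with E2A replicate 1 (8 regions), 118 bp for GR replicate 1 with E2A replicate 2 (8), 199 bp for GR replicate 2 with E2A replicate 1 (8) and 142 bp for GR replicate 2 with E2A replicate 2 (7). The same medians over the whole series were 60.0, 61.5, 82.0, 82.5, 106 and 107 bp. In each pair of a GR and an E2A library, centres thus lay farther apart at the members than over the whole series. Centres of the replicates of each factor lay nearer. Centres of the called intervals are not summits, which the lists do not give.

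Peaks in shared regions were wider than those with 1 factor in each of the 4 libraries. A wider peak meets the 1 bp rule for sharing more easily, and how much this adds to the order was not tested. At the members the medians were 436 bp (11 peaks) against 416 bp (17) in GR replicate 1. In GR replicate 2 they were 624 bp (10 peaks) against 362 bp (22). In E2A replicate 1 they were 500 bp (10 peaks) against 324 bp (14). In E2A replicate 2 they were 358 bp (9 peaks) against 308 bp, the latter from 3 peaks alone. The whole series had the same order, with 426 against 344, 500 against 379, 418 against 341 and 372 against 315 bp. Over all their peaks, the members had median widths of 429, 423, 355 and 347 bp, against 372, 408, 378 and 349 bp in the 4 libraries.

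**Figure D5:**
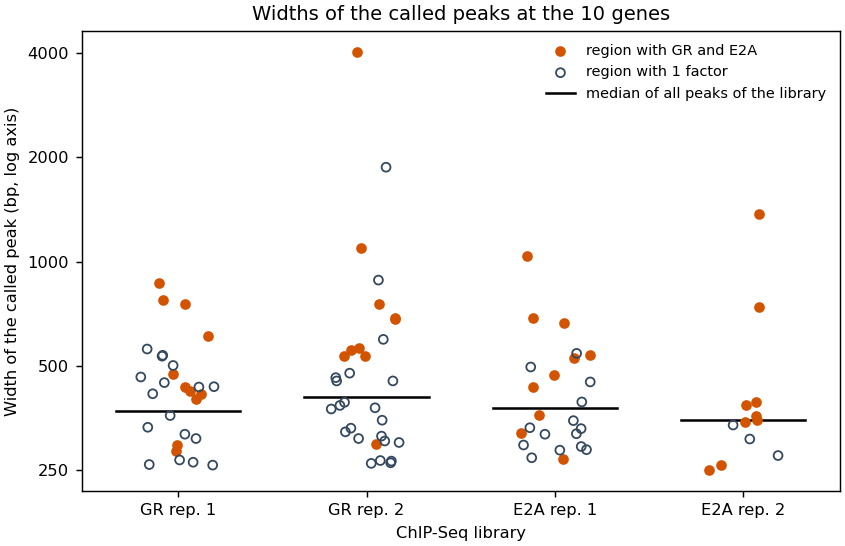
Widths (bp, log axis) of the 96 called peaks at the 10 genes by library, filled where the region held GR and E2A and open where it held 1 factor, with a bar at the median width of all peaks of that library. The widest, 4022 bp, is the GR replicate 2 peak of the distant Insr region, and points are spread sideways at random within a column.

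E-Boxes were present in most regions of either factor. CANNTG was found in 34 of the 40 member regions with GR (85.0%) and 25 of the 29 with E2A (86.2%), against 69.2% and 72.4% of all regions of each factor in 300 bp. Fewer member regions were promoters, and outside promoters the shares were 85.7% and 91.3%, against 81.5% and 81.2%. Among its forms, CAGGTG was found in 11 GR and 9 E2A regions, against 19.6% and 19.2% of all, CAGCTG in 8 and 4, against 17.0% and 17.2%, and CACGTG in 1 and 2, against 8.11% and 8.07%. The FoxO motif GTAAACA was found in 4 GR regions, against 5.15% of all, and in 3 E2A regions, against 8.11%. The CAAAACA core was found in 5 GR and 3 E2A regions, against 6.81% and 7.76%. All these counts cover the central 300 bp of each region. The CACGTG and CAAAACA matches printed for the Irs1 promoter, and the CAAAACA match of the Igfbp1 promoter, lie outside that window and are not counted. TTGCNNAA was found in 9 GR regions (22.5%), against 14.6%, and in 11 E2A regions (37.9%), against 21.1%. All of these C/EBP cores lay outside promoters, where the shares were 32.1% of GR and 47.8% of E2A regions, against 22.8% and 29.3%. Of the 8 members with an entry in the RefSeq promoter table, none had a GRE core or GTAAACA in it, and neither did most others, since 0.475% and 3.65% of all promoter windows held them. Motifs were searched on both strands, and a match is a run of letters, not evidence of a bound site.

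The other insulin pathway genes were counted under the same rule. Of 79, 56 (70.9%) had a GR region, 36 (45.6%) an E2A region, 29 (36.7%) a shared region and 9 (11.4%) a region called in all 4 libraries. The same shares of all protein-coding genes were 45.3%, 30.2%, 20.3% and 4.72%. GR peaks of both replicates met in 1 region at 24 of the 79 (30.4%), against 19.5%. All 8 inhibitors at the receptor had a GR region, 4 of them with E2A in the same region, whereas the other 3 receptors (Igf1r, Igf2r and Insrr) had no region. Of the inhibitors, Grb10 and Ptprf had GR peaks in replicate 1 alone, and Grb14, Socs1 and Socs3 in replicate 2 alone. None of the 8 had a region called in all 4 libraries. Among the IGF binding proteins and the acid-labile subunit 5 of 6 had GR and 3 had a region called in all 4 libraries. The most regions were found at Bcl6, a transcriptional repressor, with 14, at Ptpn1, the phosphatase that dephosphorylates the insulin receptor, with 13, at Igf1, the growth factor made by liver, with 8, at Igfals, its acid-labile partner in plasma, with 7, and at Ppp2r5b, a phosphatase subunit acting on Akt, with 6, the same number as at the adaptor gene Shc1. Igf1 had 3 regions called in all 4 libraries, and Igfbp4, Igfbp6, Igfals, Pik3r2, Ppp2r5b, Rps6kb1 and Bcl6 were among the genes with 1. Regions within the window at Igfbp6 and Pik3r2 were annotated only to other nearest genes, and some of the regions at Igfals, Ppp2r5b and Rps6kb1 were. Igfbp3 and Igfbp5 share regions with Igfbp1 and Igfbp2.

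The genes whose 4 peak counts by nearest gene were most like those of Pik3r1 (3, 7, 6 and 3) were Gsta3 (2, 7, 6 and 2) and Trf (2, 6, 6 and 3), both at a summed difference of 2 peaks, and Foxa2 (3, 5, 5 and 3), which tied with 1 other gene at 3. Likeness was measured over the 4 libraries and 6521 genes, as a sum of absolute differences.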

How the data were processed

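GR and E2A ChIP-Seq peaks from wild-type mouse liver were analysed, with 2 biological replicates per factor, grouped by the sample labels. Per the study's methods and the submitters' processing notes, the authors mapped the reads on mm10 (BWA 0.7.13), dropped duplicates (Picard 1.119), brought the libraries of each factor to 1 number of read pairs and ran MACS2 2.1.0 on each library. These versions are those of the submitters' notes, and the methods name other versions of Picard and MACS2. The deposited values are start, end and width in bp and the distance to the nearest gene's start site. The caller's threshold and control and the annotation tool are not given in the sources used here. The depth behind a peak is unknown.

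Peaks sharing at least 1 bp were joined over the 4 libraries. Start sites came from GENCODE M21, apart from the RefSeq starts of the printed promoters, and sequences came from GRCm38.p6. Motifs were searched in 300 bp at region centres. Genes named were the members, pathway genes with a region in all 4 libraries or among the 5 with the most regions, neighbours annotated to member regions, and the 3 genes most like the member with the most peaks. Not every gene that this rule names is reported here. Members and lists were chosen with earlier results of these data known. No test was made, since 2 libraries against 2 cannot give a two-sided exact permutation p below 0.333. Alternatives changed the overlap, replicates, window, start sites, peak width and motif settings. Code was tested on simulated data. Python 3.11.15, numpy 2.4.6, pandas 2.3.3, pysam 0.24.0, samtools 1.23.1 and matplotlib 3.10.9 were used.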

Additional observations from a re-analysis of the deposited data

How the results depend on the processing

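Beside 40 GR regions, 29 E2A regions, 12 shared regions, 7 genes with a shared region and 4 GR regions with a GRE core, requiring both replicates of a factor gave 19, 7, 4, 3 and 2. Counting the 50 kb window without the nearest gene gave 19 E2A regions and 2 with a GRE core, and 1 mismatch in the core gave 11. Leaving out 1 library at a time gave 27 to 40 GR regions, 12 to 29 E2A regions, 9 to 12 shared regions, 6 to 7 genes and 3 to 4 GRE cores, and the 12 E2A regions were those without E2A replicate 1. Of 62 such values, 53 were within 1.5 times the reported count and 9 were not, while 52 of 350 counts of single genes moved further. Why they moved was not tested, but fewer libraries or a narrower rule leave fewer regions by construction. No paired analysis was possible because the results come from no test and the sources used here do not say which libraries share a liver. Depth limits every absent peak, since the lists give called peaks alone.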

Other observations

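The widest region assigned to Insr, chr8:3046430-3050592, spanned 4163 bp and was called in both GR replicates and in E2A replicate 2. The peak of GR replicate 2 was 4022 bp wide, wider than 99.4% of the peaks of its library, and that of E2A replicate 2 was 1377 bp wide, wider than 97.5%. GR replicate 1 had a pair of peaks there, of 866 and 415 bp. The region began 46.4 kb from the first known base of the assembled chromosome 8, 34.7% of its bases were soft-masked as repeats, and the part of mapping near the chromosome's end was not tested. Insr had no other shared region, so without it GR and E2A shared a region at 6 of the 10 genes, the count that the 50 kb window alone also gave, with 10 shared regions.

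The peaks near Igfbp5 lay side by side in the first intron of that gene. The GR replicate 2 peak, chr1:72870674-72870939, ended before the E2A replicate 1 peak, chr1:72871008-72871339, began, and each was called in 1 library.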
